A study of Mus musculus with 18 samples.

Results

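Oxidative phosphorylation, the mitochondrial pathway that turns the electrons of nutrients into ATP, runs on large protein complexes whose subunits are mostly encoded in the nucleus and partly on the mitochondrial DNA. Its nuclear genes were described here across neutrophils of 6 mouse tissues. The group was set by symbol: protein-coding genes whose mouse symbol begins with Nduf, Uqcr, Cox4 to Cox8 or Atp5, or is Sdha, Sdhb, Sdhc, Sdhd or Cycs, and which reached 1 scaled count (defined below) in 3 or more libraries. In all 94 genes had such a symbol and 89 of them passed the value filter, out of 32328 genes in the table and 16157 genes that passed the same filter. The 5 that did not pass were the isoforms Cox6a2, Cox6b2, Cox7b2, Cox8b and Cox8c. The symbols and the biochemistry part ways in places. Of the 89, 8 were complex I assembly factors of the Ndufaf series and not subunits, Ndufa4 and Ndufa4l2 were counted with complex IV, and the complex III subunit Cyc1 lay outside the rule and is given separately. The 89 genes then fell into 36 of complex I, 4 of complex II, 8 of complex III, 15 of complex IV, 17 of complex V, the electron carrier Cycs and the 8 assembly factors.

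Complex I oxidises NADH and passes electrons to ubiquinone, and complex II, which is also an enzyme of the citrate cycle, does so from succinate. Complex III hands the electrons to cytochrome c, complex IV passes them to oxygen, and complex V, the ATP synthase, uses the resulting proton gradient to make ATP. Mature neutrophils are known for few mitochondria and a reliance on glycolysis.

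The cells were Ly6G+ neutrophils of C57BL/6 mice aged 8 to 12 weeks, sorted on CD45, CD11b and Ly6G with DAPI labelling, at purities typically above 95%. They came from bone marrow (BM), Spleen, Lung, Intestine (colon), Skin (ear) and Blood, with 3 libraries per tissue and 18 in all. The labels name no treatment. Whether the 3 libraries of a tissue came from separate animals is not given in the sources used here, so each p-value reflects only how these libraries scatter, which may be technical. Their RNA was amplified before sequencing, and the values are estimated read counts scaled to an effective library size, with no correction for the length of a gene. The name scaled counts is used for them, and a library without counts is given as 0. They are divided by exon length only where this is stated. Sums over genes are not divided by it.

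Some libraries stood apart before any gene was compared. Estimated counts totalled 2.94e+06 in Lung replicate 1 and 5.68e+06 to 1.21e+07 in the other 17 libraries. In Skin 19, 39 and 21 of the 89 genes had 0 counts, and in the other 15 libraries 1 to 17. The summed scaled counts of 16 neutrophil identity genes were 1126 to 1471 in Intestine, 6675 to 21185 in Lung and 1918 to 23893 in Skin, against 34761 to 37448 in Blood. Blood is shared by all 5 comparisons, and 9 erythroid markers summed to 80.97 to 120.2 scaled counts in BM, 24.3 to 82.4 in Spleen, 168 to 650.2 in Lung, 96.9 to 2068 in Intestine and 96.8 to 466 in Skin, against 2930 to 8913 in Blood. Predicted gene Gm10800 took 23.7, 19.6 and 11.2% of estimated counts in Skin and at most 3.60% elsewhere. In the fit each library had a weight estimated from its spread, 0.107 to 0.440 in Skin, 0.589 to 2.17 in Intestine, 0.591 to 3.01 in Lung and 1.75 to 1.98 in Blood. In bulk samples such as these, fewer cells of a type and less RNA per cell cannot be told apart.

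As a set the nuclear genes were detected in every tissue, but single genes had 0 counts in all libraries of a tissue. All 89 together took 0.152 to 0.482% of the estimated counts of a library. Per kilobase of exon, the mean of the 6 tissue means had a median of 7.71 scaled counts over the 89 genes, with a range of 0.408 to 89.1. The highest were Atp5b and Atp5a1, the catalytic beta and the alpha subunit of the ATP synthase head, at 89.1 and 86.6 scaled counts per kilobase, with Atp5c1, the gamma subunit, at 80.6 and Sdhd, a membrane anchor of complex II, at 75.4. The lowest were the assembly factors Ndufaf4 at 0.408 and Ndufaf5 at 0.465 scaled counts per kilobase. Above 0 counts in all 18 libraries were 40 of the 89 genes.

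**Figure D1:**
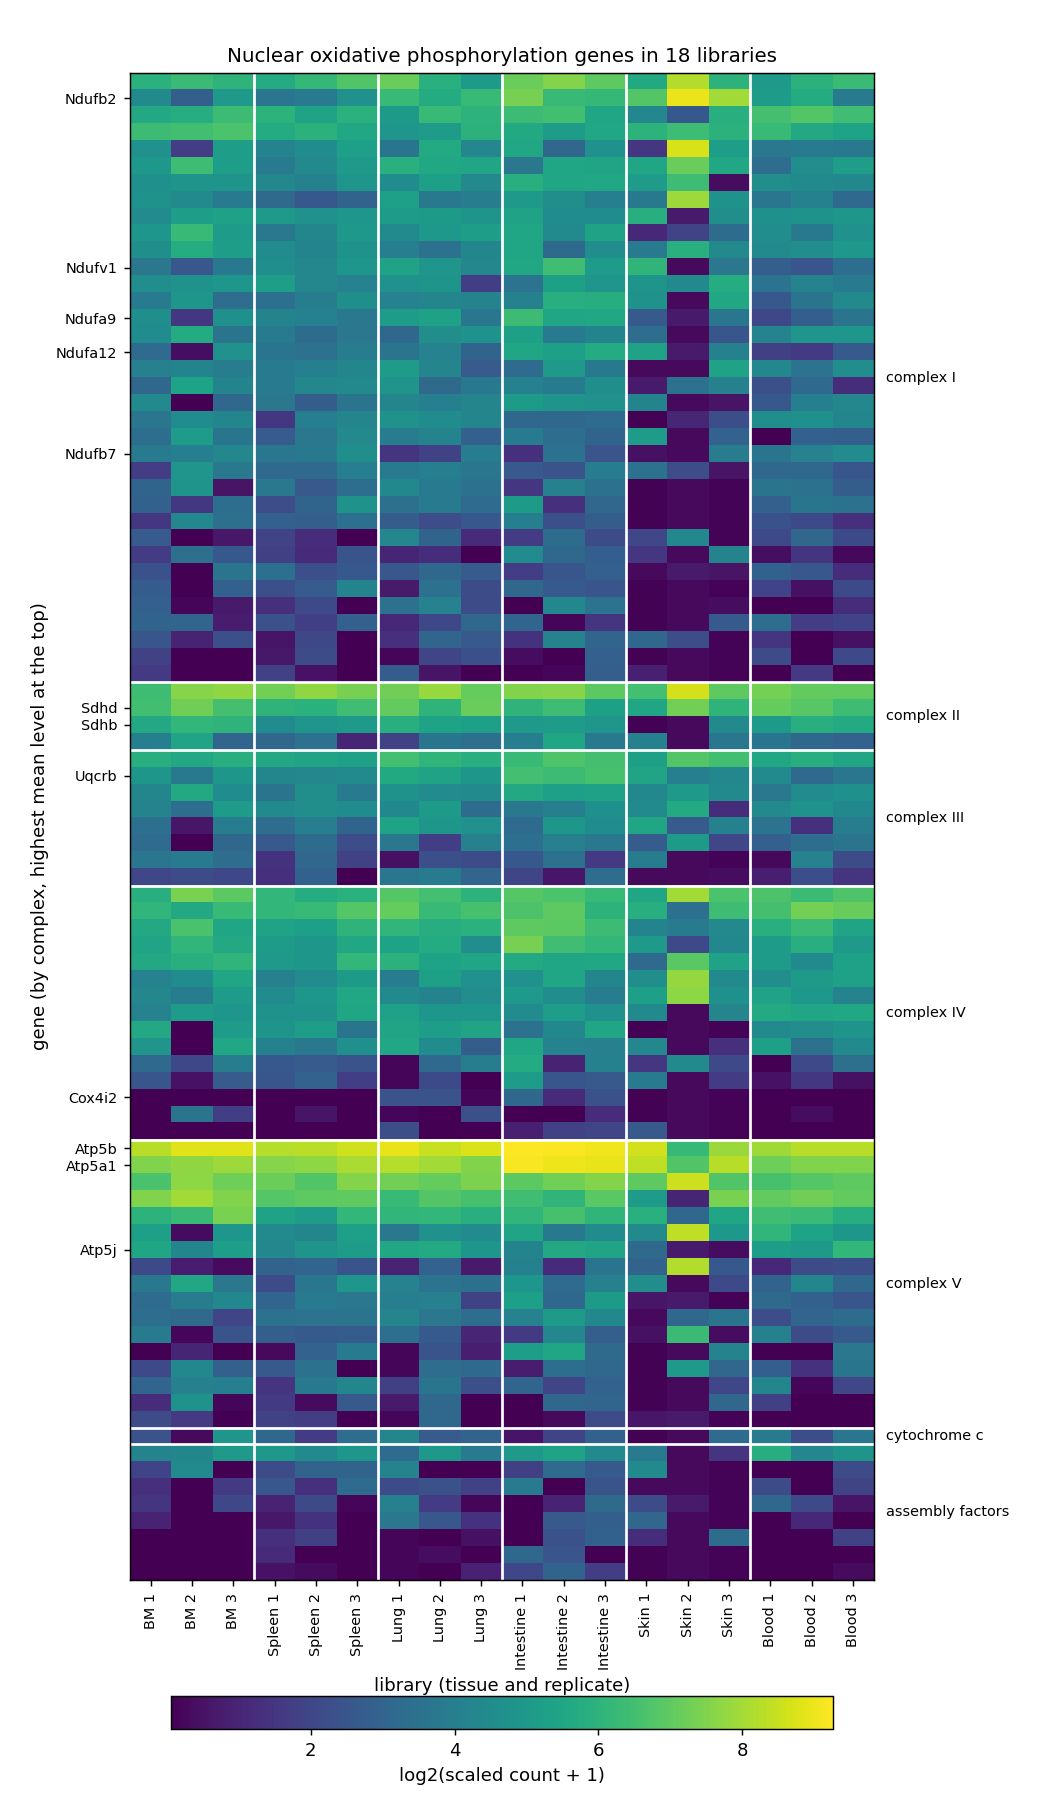
Level of each of the 89 genes (rows, by complex and then from the highest to the lowest mean level, 12 of them labelled) in each of the 18 libraries (columns, by tissue), as log2(scaled count + 1). Dark cells are at or near 0, which were most frequent in Skin, with 39 of 89 genes at 0 counts in Skin replicate 2. The brightest rows are Atp5a1 and Atp5b. Neither the levels nor the order of rows takes exon length into account.

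Differences between the 6 tissues were tested with limma's F test on log2(scaled count + 1), with Benjamini-Hochberg adjustment over all 16157 genes and a threshold of 0.05. Of the 89 genes, 26 passed (29.2%), against 51.4% of all genes tested. The distance between the highest and lowest tissue mean had a median of 2.10 on the log2 scale over the 89 genes and 2.38 over all genes tested, and without Skin 1.37 and 1.89. The genes passing were 11 of 36 in complex I, 1 of 4 in complex II, 2 of 8 in complex III, 5 of 15 in complex IV, 4 of 17 in complex V and 3 of 8 assembly factors, and Cycs did not pass. Without library weights 17 of the 89 passed. For this and the other alternative fits below the share of all genes passing was not recorded, so their counts have no background. Without Intestine replicate 1, 2 or 3, 16, 13 and 13 passed, and without Lung replicate 1, 17 passed.

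Ndufb11, a complex I accessory subunit, had 39.7, 22.3 and 22.3 in Intestine, 34.7, 32.8 and 27.5 in Lung, 31.6, 24.99 and 28.5 in Spleen, 21.6, 36.1 and 39.2 in BM, 56.9, 0.649 and 23.2 in Skin, against 24.4, 26.6 and 29.8 in Blood. Its libraries lay between 21.6 and 39.7 outside Skin, where 1 was above and 1 below that range. Sdha, the flavoprotein of complex II that oxidises succinate, had 184, 191 and 122 in Intestine, 151, 230.3 and 134 in Lung, 155, 212 and 167 in Spleen, 83.7, 194 and 209.8 in BM, 89.98, 407 and 125 in Skin, against 161, 133 and 131 in Blood. Every tissue overlapped Blood in Sdha, which did not pass (adjusted p = 0.469, F test in limma). Sdhc, a membrane anchor of complex II, had 15.1, 43.7 and 12.8 in Intestine, 2.69, 11.4 and 9.90 in Lung, 7.52, 10.6 and 0.993 in Spleen, 15.5, 42.5 and 7.39 in BM, 16.3, 0 and 11.7 in Skin, against 11.3, 7.72 and 6.65 in Blood (adjusted p = 0.553, F test in limma). Its 3 Intestine libraries lay above those of Blood, while its Skin libraries lay on both sides of them.

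The common complex IV isoforms did not differ past the threshold either. Cox4i1 had 114, 99.9 and 78.4 in Intestine, 114, 90.01 and 63.8 in Lung, 70.6, 53.5 and 59.9 in Spleen, 57.5, 171 and 121 in BM, 44.7, 256 and 99.98 in Skin, against 101, 80.4 and 105 in Blood. Its 3 Spleen libraries lay below Blood, the other tissues overlapped Blood, and the adjusted p was 0.329 (F test in limma). Exons of Cox4i1 overlap Emc8 on the opposite strand. Cox6a1 had 50.6, 44.6 and 46.4 in Intestine, 61.3, 40.7 and 44.3 in Lung, 31.4, 29.8 and 69.4 in Spleen, 47.5, 56.3 and 66.1 in BM, 8.17, 119 and 40.5 in Skin, against 34.3, 21.2 and 39.1 in Blood. Its Intestine, Lung and BM libraries lay above those of Blood, with an adjusted p of 0.353 (limma). Cox6b1, which sits on the intermembrane side of complex IV, had 21.4, 36.4 and 25.5 in Intestine, 38.5, 28.8 and 28.8 in Lung, 25.5, 26.7 and 43.3 in Spleen, 16.7, 33.4 and 29.04 in BM, 20.2, 0 and 17.76 in Skin, against 50.9, 44.5 and 46.1 in Blood. In all 5 tissues the 3 libraries lay below the Blood libraries, and the F test did not pass (adjusted p = 0.146, limma). Cox7a2 had 42.9, 16.5 and 15.9 in Intestine, 46.1, 21.9 and 5.79 in Lung, 16.2, 12.5 and 24.5 in Spleen, 28.1, 0 and 45.9 in BM, 18.7, 0 and 1.45 in Skin, against 38.1, 10.5 and 20.9 in Blood. Cox7a1, its isoform of heart and skeletal muscle, had 0, 0 and 1.34 in Intestine, 0, 0 and 3.99 in Lung, 0, 0.473 and 0 in Spleen, 0, 11.03 and 2.37 in BM, 0 in all 3 libraries of Skin, against 0, 0.272 and 0 in Blood. Every tissue overlapped Blood in both (adjusted p = 0.665 for Cox7a2 and 0.549 for Cox7a1, limma). Cox7a2l, which takes part in joining complexes III and IV into supercomplexes, had 102, 126 and 63.5 in Intestine, 134, 75.5 and 93.8 in Lung, 70.9, 74.6 and 113 in Spleen, 67.5, 48.2 and 76.6 in BM, 56.3, 9.74 and 83.8 in Skin, against 92.2, 161 and 139 in Blood (adjusted p = 0.149, limma). Its Skin and BM libraries lay below those of Blood. Cox8a had 24.9, 43.9 and 18.3 in Intestine, 14.2, 38.4 and 25.1 in Lung, 15.9, 21.5 and 32.8 in Spleen, 16.5, 22.2 and 44.9 in BM, 23.6, 221 and 20.4 in Skin, against 22.4, 32.6 and 39.1 in Blood, with overlap everywhere (adjusted p = 0.723, limma). Cycs, cytochrome c itself, had 0.483, 2.83 and 6.46 in Intestine, 18.1, 5.48 and 6.85 in Lung, 7.73, 2.23 and 9.17 in Spleen, 4.37, 0.212 and 27.9 in BM, 0, 0 and 8.70 in Skin, against 13.9, 3.69 and 11.6 in Blood. Every tissue overlapped Blood, the adjusted p was 0.818 (F test in limma), and 24.9% of its 61-base sequences occur in other genes.

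One complex IV gene that did pass was Cox6c, with 124, 121 and 81.4 in Intestine, 68.1, 54.9 and 60.5 in Lung, 40.3, 37.4 and 65.2 in Spleen, 47.4, 97.4 and 44.6 in BM, 17.7, 13.2 and 19.8 in Skin, against 56.5, 79.9 and 42.01 in Blood (adjusted p = 0.0249, F test in limma). Its Intestine libraries lay above and its Skin libraries below those of Blood. Its exons overlap Vps13b on the opposite strand, and the counting is not stated to use strand, so reads of such pairs cannot be told apart.

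With library weights Intestine had the most calls of the 5 tissues, and without them Skin had 14 and Intestine 10. Against Blood, 24 of the 89 genes were higher and 2 were lower (limma, adjusted p under 0.05), while of all genes tested 46.3% passed in either direction, 27.0% higher and 19.3% lower. The share of the 89 genes that rose was 27.0% as well, and the share that fell was 2.25%. The median log2 difference was 0.71 over the 89 genes and 0.15 over all genes tested. Under quantile normalisation the medians were 0.19 over the 89 genes and -0.18 over all genes. In 25 of the 89 genes all 3 Intestine libraries were above all 3 Blood libraries, and in 5 below (backgrounds 26.0% and 24.1%). On the log2 scale Intestine had the highest mean of the 6 tissues for 30 genes (33.7%, against 29.0% of all genes) and the lowest for 1 gene (1.12%, against 20.5%). The summed scaled counts of the 89 genes were 4177, 3977 and 3540.0 in Intestine, against 2426, 2590 and 2525 in Blood (3898 ± 326 and 2513 ± 82.6, SD, n = 3 each).

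**Figure D2:**
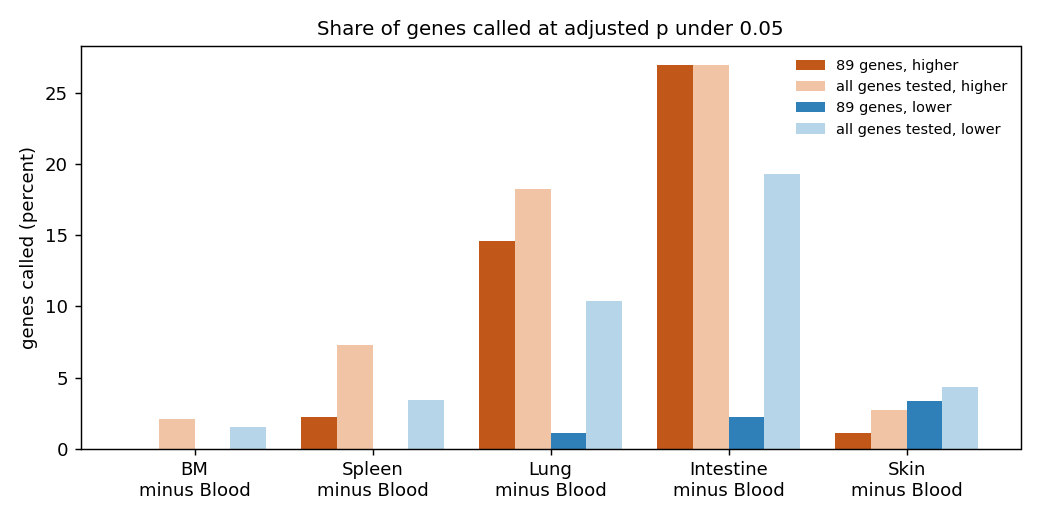
Percent of genes called higher or lower against Blood (limma, adjusted p under 0.05) in each tissue, for the 89 genes and for all 16157 genes tested. In Intestine the share called higher was 27.0% in both sets, while 2 of 89 genes were called lower against 19.3% of all genes.

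The smallest adjusted p values in Intestine belonged to a complex III gene and a gene of the ATP synthase head. Uqcrb, the ubiquinone-binding protein of complex III (chr13:66900617-66905378, GRCm38), had 90.6, 81.3 and 94.2 in Intestine, 48.7, 40.3 and 29.5 in Lung, 18.4, 18.8 and 20.3 in Spleen, 29.5, 12.6 and 29.7 in BM, 42.4, 15.4 and 18.7 in Skin, against 20.99, 8.16 and 11.7 in Blood. The 3 Intestine libraries were above all other libraries, and the difference from Blood was 2.77 ± 0.40 log2 (SE, adjusted p = 4.25e-06, limma, n = 3 each). Of its 61-base sequences 21.6% also occur in other genes, foremost Gm16089, and its exons overlap Gm10767 on the opposite strand, so its counts are uncertain. Uqcrc2, a core protein of the same complex with 17.2% of its sequences shared, was higher too (log2 0.90 ± 0.30, adjusted p = 0.0152, limma). Its exons overlap Pdzd9 on the opposite strand. Uqcrfs1, the Rieske iron-sulfur protein, had 8.78, 29.1 and 22.2 in Intestine, 40.6, 29.1 and 24.98 in Lung, 9.08, 14.8 and 7.14 in Spleen, 9.55, 0.514 and 14.5 in BM, 43.2, 5.41 and 16.3 in Skin, against 10.7, 1.47 and 14.2 in Blood, and did not pass in Intestine (adjusted p = 0.0752).

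Atp5a1, whose exons overlap Haus1 on the opposite strand (chr18:77773729-77782869), had 571, 518 and 499 in Intestine, 301, 255 and 182 in Lung, 190.3, 205 and 270.4 in Spleen, 183, 209 and 240.3 in BM, 329.8, 107 and 309.8 in Skin, against 151, 184 and 183 in Blood. All 3 Intestine libraries were above the other 15 libraries, at 529 ± 37.1 in Intestine and 172 ± 18.6 in Blood (SD, n = 3 each), a difference of 1.57 ± 0.25 log2 (adjusted p = 1.19e-05, limma). Atp5b (chr10:128083273-128090391) had 614, 588 and 538 in Intestine, 495, 362 and 427 in Lung, 299.8, 313 and 389.8 in Spleen, 308, 445 and 447 in BM, 400.0, 74.6 and 233 in Skin, against 245, 309 and 307 in Blood. Its difference of 0.96 ± 0.25 log2 was smaller than that of Atp5a1 and passed as well (adjusted p = 0.00250, limma). Of complex V, Atp5d, Atp5o and Atp5g2, which encode the delta subunit, the stalk protein OSCP and a copy of the membrane ring subunit, also rose, and 12 of 17 genes did not pass. Atp5o and Atp5g2 share 37.8% and 37.2% of their 61-base sequences with other genes, so their own levels are uncertain. Atp5g2 had 35.7, 43.7 and 8.42 in Intestine, against 0, 0 and 11.9 in Blood, so the libraries of both tissues overlapped. Exons of Atp5d overlap Cbarp and those of Atp5o overlap Gm15976 on the opposite strand.

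In complex I, 10 of 36 genes were higher in Intestine and 1 was lower (27.8% and 2.78%, against 27.0% and 19.3% of all genes tested). Ndufa12, an accessory subunit (chr10:94198720-94221443), had 44.3, 36.8 and 51.1 in Intestine, 11.1, 16.7 and 7.14 in Lung, 11.01, 10.3 and 14.5 in Spleen, 8.71, 0.313 and 25.5 in BM, 39.95, 0.649 and 16.2 in Skin, against 2.45, 2.06 and 5.36 in Blood. The Intestine libraries lay above all 3 Blood libraries, by 3.54 ± 0.65 log2 (adjusted p = 8.62e-05, limma), and 16.3% of its 61-base sequences occur in other genes. Ndufv1, the core subunit that binds NADH (chr19:4007384-4012806), had 47.1, 85.4 and 33.4 in Intestine, 39.6, 28.3 and 18.8 in Lung, 23.8, 18.9 and 28.8 in Spleen, 11.9, 4.86 and 12.7 in BM, 66.9, 0 and 12.2 in Skin, against 6.16, 4.63 and 9.53 in Blood, higher in Intestine by 2.57 ± 0.51 log2 (adjusted p = 0.000218, limma). Ndufa9, another accessory subunit, with exons that overlap 1700018A23Rik on the opposite strand, had 81.5, 43.3 and 45.03 in Intestine, 34.4, 38.9 and 11.7 in Lung, 17.7, 16.3 and 12.4 in Spleen, 24.1, 1.89 and 24.7 in BM, 5.37, 0.649 and 11.8 in Skin, against 3.17, 6.15 and 11.2 in Blood, higher in Intestine by 2.79 ± 0.59 log2 (adjusted p = 0.000425, limma). Also higher in Intestine were the complex I genes Ndufc1, Ndufb5, Ndufa10, Ndufa5, Ndufc2 and Ndufb2, with log2 differences of 1.52 to 2.68. In both Ndufv1 and Ndufa9 the Intestine libraries were above those of Blood.

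The 2 genes that fell in Intestine were in complex I and complex II. Ndufb7, an accessory subunit of complex I (chr8:83566671-83571626), had 1.44, 10.1 and 4.57 in Intestine, 1.70, 2.58 and 14.5 in Lung, 11.7, 12.8 and 23.9 in Spleen, 12.99, 15.5 and 19.1 in BM, 0.368, 0 and 14.6 in Skin, against 11.5, 16.5 and 21.5 in Blood, and fell by 1.61 on the log2 scale against Blood (SE 0.63, adjusted p = 0.0405, limma). Sdhd (chr9:50596357-50603812) had 64.3, 83.03 and 37.6 in Intestine, 132, 64.3 and 143 in Lung, 65.1, 60.1 and 85.1 in Spleen, 87.1, 155 and 92.4 in BM, 44.7, 158 and 65.01 in Skin, against 135, 116 and 84.4 in Blood, and fell by 1.14 (SE 0.35, adjusted p = 0.00945, limma). The Intestine libraries were below the Blood libraries in both genes. Sdhd did not pass the F test. Without library weights the adjusted p was 0.215 for Ndufb7 and 0.238 for Sdhd (limma), and neither passed without Intestine replicate 1 (0.229 and 0.0706), without Intestine replicate 3 (0.177 and 0.405) or with median-of-ratios size factors.

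The tissue-restricted isoform Cox4i2, known in lung and under low oxygen, was found in 2 tissues. It had 4.31, 4.25 and 0.168 in Lung and 7.82, 1.20 and 4.03 in Intestine, and 0 counts in all BM, Spleen, Skin and Blood libraries. Cox4i2 reached 1 scaled count in 5 libraries, all of Lung or Intestine. It thus passed the value filter only through the tissues where it is high. Against a floor of 3 counts per Blood library its mean level was at least 8.74-fold higher in Lung and at least 13.1-fold higher in Intestine, a bound that covers counting error only. In Lung replicate 1 it was 6.73% of the length-corrected sum of Cox4i1 and Cox4i2, in Lung replicate 2 8.42% and in Lung replicate 3 0.345%, and in Intestine 11.8, 2.24 and 9.11%. Ndufa4l2, a relative of Ndufa4 induced by low oxygen, whose exons overlap Shmt2 on the opposite strand, had 0.798, 2.61 and 2.96 in Intestine, with 0 counts in Blood (at least 6.38-fold higher by the same bound), while 3.79, 0 and 0 in Lung and 5.22, 0 and 0 in Skin each rest on 1 library. Ndufa4 had 33.1, 4.77 and 5.11 in Intestine, 0, 3.37 and 0 in Lung, 4.68, 6.73 and 2.41 in Spleen, 4.75, 0.400 and 5.46 in BM, 13.8, 0 and 2.14 in Skin, against 0.419, 1.91 and 0.365 in Blood, higher in Intestine by 2.16 ± 0.73 log2 (adjusted p = 0.0174, limma). Ndufa4 did not pass the F test, and its Intestine values of 4.77 and 5.11 lay within the range of Spleen. Ndufaf5, an assembly factor, had 3.03, 6.93 and 2.34 in Intestine, against 0, 0 and 0.260 in Blood (log2 1.89 ± 0.41, adjusted p = 0.000555, limma). Ndufaf2, with 0, 5.19 and 6.18 in Intestine against 0, 1.14 and 0 in Blood, and Ndufaf4, with 0, 4.03 and 6.56 in Intestine against 0, 0 and 2.55 in Blood, rose too, and 5 of 8 assembly factors did not pass. Ndufaf2 shares 63.7% of its 61-base sequences with other genes. In complex IV Cox4i2, Ndufa4l2, Cox7c and Ndufa4 rose and 11 of 15 did not pass.

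**Figure D3:**
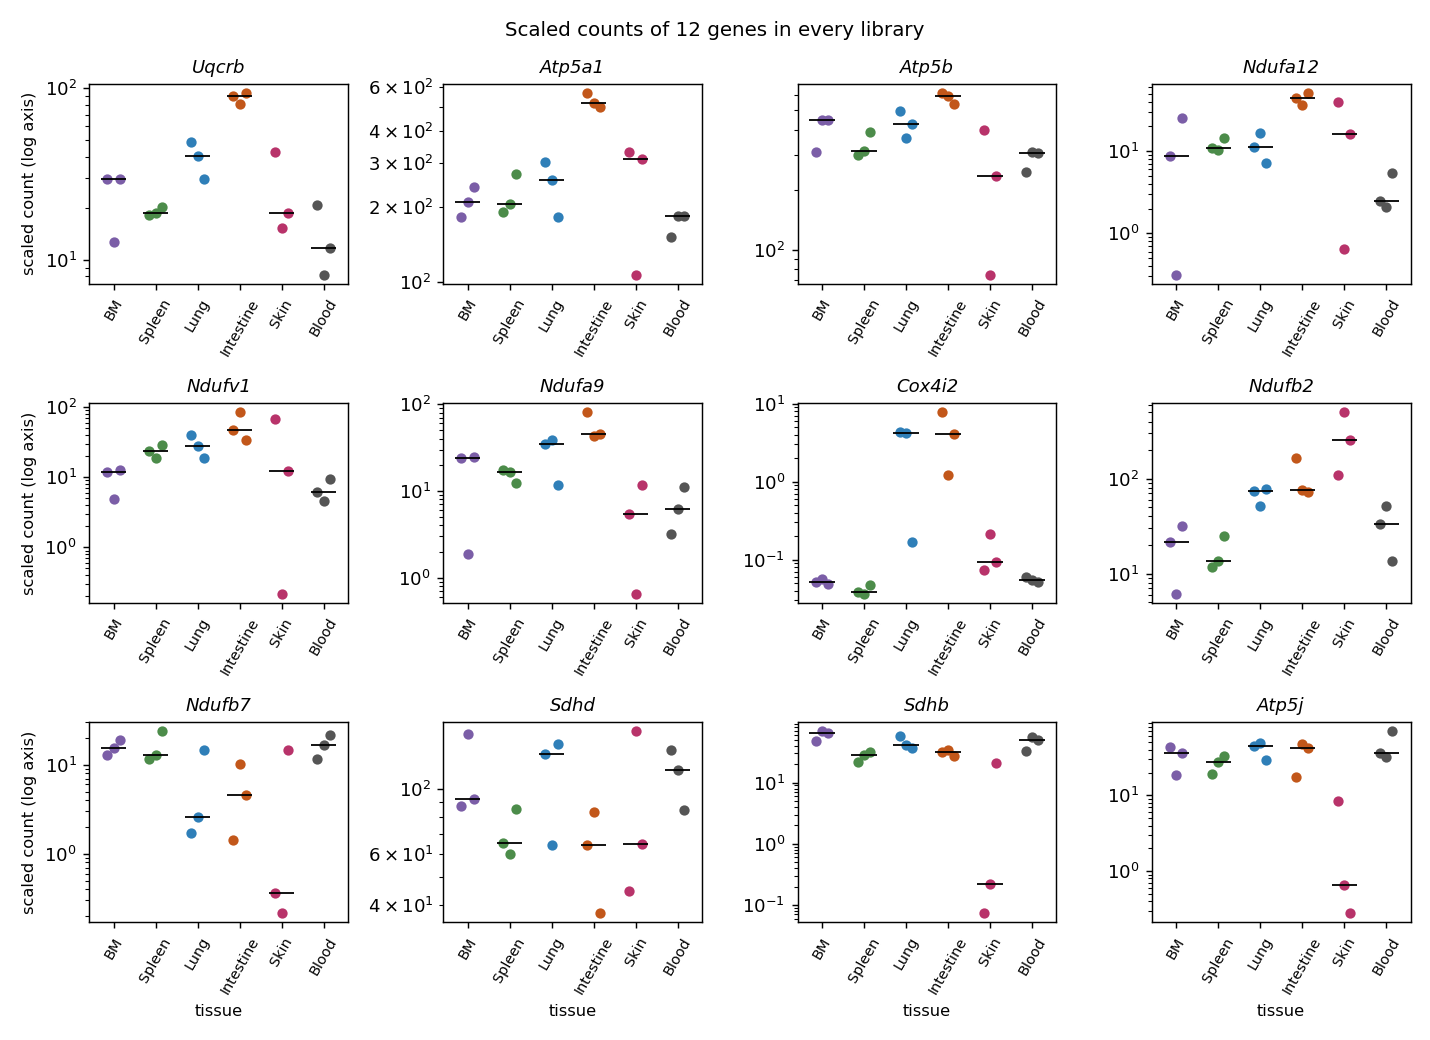
Scaled counts (log axis) of 12 genes in each library, by tissue with Blood at the right. Points are libraries, bars the median of 3, and points at 0 counts stand at the lowest value of their library. In Intestine all 3 points of Uqcrb and Atp5a1 lie above every other library, and Cox4i2 is above 0 counts only in Lung and Intestine.

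Markers of neutrophils and of other cells also differed between Intestine and Blood. Against Blood, 16 of 16 neutrophil identity genes and 7 of 8 tested erythroid markers were lower in Intestine (median log2 differences -4.53 and -3.86), while 12 of 12 endothelial, 12 of 12 fibroblast and smooth muscle, 11 of 14 macrophage and dendritic cell and 7 of 13 tested epithelial markers were higher (medians 4.86, 6.83, 2.16 and 3.27). Their summed scaled counts were 856 to 2661 in Intestine and 64.1 to 76.5 in Blood for the endothelial list, 6566 to 14057 and 62.1 to 82.0 for the fibroblast and smooth muscle list, and 1121 to 1832 and 484 to 744 for the macrophage and dendritic cell list. Of 12 B cell markers 4 were higher and 1 was lower in Intestine, and of 13 tested T and NK cell markers 4 were higher and 1 lower. Whether these markers have a part in the differences of the 89 genes was not tested. The 14 epithelial markers in the table summed to 411 to 482 in Intestine, against 8.55 to 93.6 in Blood. Without library weights 10 of the 89 genes passed in Intestine, 9 of them among the 26, with Uqcrb, Atp5a1, Ndufa12, Ndufv1, Ndufa9 and Ndufaf5 still passing. Without Intestine replicate 2 there were 17 calls, 16 of them among the 26, and without Intestine replicate 3 there were 14, with 13 among the 26.

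The promoters of the 89 genes differ in whether they hold motifs of regulators known for respiratory genes, which are nuclear respiratory factor 1 (NRF1), ETS factors such as GABPA and YY1. In RefSeq (GRCm38.p6) 72 of the 89 genes had a promoter window of 250 bases before the start to 50 after it, and both strands were searched. The NRF1 motif GCGCATGCG was present in 11 of the 72 (15.3%, against 3.64% of the protein-coding genes tested), the ETS motif CCGGAAG in 18 (25% against 17.9%) and the YY1 motif AAGATGGC in 10 (13.9% against 4.65%). The ETS motif ends and the YY1 motif begins with AAG, so both can overlap, and the NRF1 motif can overlap itself when read on both strands. Of the 18 genes higher in Intestine with a window, 3 held the NRF1 motif, 2 the YY1 motif and 0 the ETS motif, against 8, 8 and 16 of the 52 not passing there. The 2 genes lower in Intestine, Ndufb7 and Sdhd, both held the ETS motif. These windows were compared after the values were seen, and a match is a description and not a binding site.

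The 150 bases before the start are shown for 6 genes, 5′ to 3′ on the gene's strand, with motif matches in capitals. Cycs and Atp5g2 hold the NRF1 motif, Ndufb7 and Sdhd the ETS motif, and Ndufa12 and Ndufv1 hold none of the 3. In Intestine Atp5g2, Ndufa12 and Ndufv1 rose, Ndufb7 and Sdhd fell, and Cycs did not pass. These 6 genes are examples, and the counts above cover all genes with a window.
Cycs, chr6:50566570-50566719, minus strand: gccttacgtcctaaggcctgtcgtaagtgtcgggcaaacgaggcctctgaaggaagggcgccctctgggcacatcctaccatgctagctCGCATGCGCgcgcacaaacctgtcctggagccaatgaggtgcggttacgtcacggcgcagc
Atp5g2, chr15:102671048-102671197, minus strand: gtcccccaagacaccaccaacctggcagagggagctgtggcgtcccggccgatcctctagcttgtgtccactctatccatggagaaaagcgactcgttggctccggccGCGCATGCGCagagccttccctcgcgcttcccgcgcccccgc
Ndufb7, chr8:83566608-83566757, plus strand: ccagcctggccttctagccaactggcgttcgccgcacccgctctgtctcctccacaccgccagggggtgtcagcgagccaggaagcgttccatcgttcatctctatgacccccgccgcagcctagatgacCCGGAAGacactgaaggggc
Sdhd, chr9:50603850-50603999, minus strand: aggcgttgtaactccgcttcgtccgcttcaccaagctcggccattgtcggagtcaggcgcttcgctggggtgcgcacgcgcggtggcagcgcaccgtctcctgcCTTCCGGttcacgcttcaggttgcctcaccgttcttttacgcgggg
Ndufa12, chr10:94198885-94199034, plus strand: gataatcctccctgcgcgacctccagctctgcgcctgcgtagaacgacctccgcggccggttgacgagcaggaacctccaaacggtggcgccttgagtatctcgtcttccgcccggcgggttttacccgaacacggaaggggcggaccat
Ndufv1, chr19:4012756-4012905, minus strand: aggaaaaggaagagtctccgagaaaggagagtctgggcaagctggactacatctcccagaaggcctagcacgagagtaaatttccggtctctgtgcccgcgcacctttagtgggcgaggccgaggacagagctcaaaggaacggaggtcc

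In Lung 13 of the 89 genes were higher than in Blood and 1 was lower, with backgrounds of 28.6% passing in either direction, 18.3% higher and 10.4% lower. The median log2 difference was 0.35 over the 89 genes and 0.07 over all genes tested. Under quantile normalisation these medians were -0.05 and -0.14. Ndufa5, a complex I accessory subunit, had 10.3, 16.7 and 3.54 in Lung, against 0, 0 and 1.41 in Blood, and was higher by 3.29 ± 0.75 log2 (adjusted p = 0.00195, limma). Uqcrb was higher by 1.60 ± 0.38 (adjusted p = 0.00279), Ndufv1 by 1.95 ± 0.49 (0.00393), Ndufa9 by 2.20 ± 0.56 (0.00483) and Ndufaf2 by 2.11 ± 0.61 log2 (0.0119, limma), and Ndufb7 fell by 2.03 (SE 0.60, adjusted p = 0.0138). The others higher were Cox4i2, Atp5s, Uqcrfs1, Ndufa12, Ndufc2, Uqcr11, Ndufb10 and Ndufb8. In 18 of the 89 genes all 3 Lung libraries were above Blood and in 5 below (backgrounds 17.6% and 14.5%).

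These Lung calls depended on single libraries and on the weights. None of the 14 remained without library weights, without Lung replicate 1 or without Lung replicate 2, and 7 remained without Lung replicate 3. The weight of Lung replicate 2 was 3.01, against 0.603 and 0.591 for replicates 1 and 3. The endothelial markers summed to 1171 to 4364 in Lung, against 64.1 to 76.5 in Blood, with 12 of 12 higher, and 10 of 12 fibroblast and smooth muscle markers and 8 of 13 tested epithelial markers were higher. Of the neutrophil identity genes 12 of 16 were lower, 10 of 12 B cell markers and 6 of 14 macrophage and dendritic cell markers were higher, and the median of the 89 genes was 0.17 without Lung replicate 2. Of 8 tested erythroid markers 7 were lower in Lung. The part of these markers in the Lung differences was not tested.

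Few or none of the 89 genes passed in Spleen and BM. In Spleen Ndufv1 (log2 1.61 ± 0.43, adjusted p = 0.0150) and Ndufb5, a complex I accessory subunit (log2 1.91 ± 0.52, adjusted p = 0.0176, limma), were higher and no gene was lower, against backgrounds of 10.7% passing, 7.28% higher and 3.40% lower. Ndufb5 had 13.5, 18.9 and 20.1 in Spleen, against 3.89, 8.11 and 1.41 in Blood, and its exons overlap Mrpl47 on the opposite strand. Neither passed without library weights (adjusted p = 0.831 for Ndufv1 and 0.61 for Ndufb5, limma), neither passed without Spleen replicate 1 or replicate 2, and 1 of the 2 was lost without any one of the 3 Blood libraries. All 3 libraries were above Blood in 12 genes and below in 10 in Spleen (backgrounds 13.5% and 15.7%). In Spleen 11 of 12 B cell and 6 of 13 tested T and NK cell markers were higher and 12 of 16 neutrophil identity genes and 6 of 8 tested erythroid markers lower, and their part was not tested. In BM 6 of 8 tested erythroid markers were lower and 6 of 12 B cell markers higher. In BM 0 of the 89 genes passed, against 3.58% of all genes (2.05% higher, 1.53% lower), with 11 of the 89 and 2613 of all 16157 genes at an unadjusted p under 0.05 in limma, and 0 of the 89 passing with voom. All 3 BM libraries were above Blood in 9 genes and below in 3 (backgrounds 9.37% and 9.93%). The median log2 differences were 0.04 in Spleen and 0.20 in BM over the 89 genes and 0.05 and -0.01 over all genes tested.

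In Skin 1 gene was higher and 3 were lower than in Blood, with backgrounds of 7.10% passing, 2.74% higher and 4.36% lower. Ndufb2, a complex I accessory subunit, had 164, 75.5 and 71.7 in Intestine, 74.8, 51.1 and 77.01 in Lung, 11.6, 13.4 and 25.1 in Spleen, 21.3, 6.08 and 31.4 in BM, 110.0, 507 and 254 in Skin, against 33.1, 51.5 and 13.4 in Blood. It was higher in Skin by 2.88 ± 0.85 log2 (adjusted p = 0.0389, limma), and its exons overlap Braf and Gm16272 on the opposite strand and Gm42420 on the same one. Lower were Atp5j, the stalk factor F6, at 8.31, 0.649 and 0.279 in Skin against 36.1, 31.8 and 70.9 in Blood (log2 -4.20 ± 0.84, adjusted p = 0.00443), and Sdhb, the iron-sulfur protein of complex II, at 0, 0 and 20.6 in Skin against 32.7, 55.1 and 49.9 in Blood (log2 -2.99 ± 0.81, adjusted p = 0.0263, limma). Exons of Atp5j overlap Gabpa on the opposite strand. Cox5a, a complex IV subunit, had 0 counts in every Skin library, against 20.3, 23.6 and 27.01 in Blood, and was at least 30.9-fold lower by the floor of 3 counts per Skin library. Its exons overlap Gm26631 on the opposite strand. Other genes had 0 counts in every Skin library without passing. Among them were Ndufs8 and Ndufa6, with means of 9.42 and 9.04 in Blood (at least 12.3-fold and 11.8-fold lower by the same floor).

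The Skin calls varied with the fit. Without weights 14 of the 89 genes passed, among them these 4, and 0 passed with the 6 Skin and Blood libraries fitted alone. The share of all genes passing in these fits was not recorded. Without Skin replicate 1, 2 or 3 there were 1, 2 and 2 calls, of which 1, 2 and 1 were among the 4. All 3 Skin libraries were above Blood in 8 genes and below in 19 (backgrounds 16.5% and 17.7%). In Skin 13 of 16 neutrophil identity genes and 5 of 8 tested erythroid markers were lower, and 5 of 14 macrophage and dendritic cell, 4 of 12 fibroblast and smooth muscle and 3 of 13 tested epithelial markers were higher, with 1 of 7 tested striated muscle markers. Their part was not tested. Skin had the lowest log2 mean of the 6 tissues for 42 genes (47.2%, against 29.9% of all genes), and 19 to 39 genes were at 0 counts in its libraries. The median log2 difference was -0.23 over the 89 genes and -0.14 over all genes tested, and -0.48 over the 89 without Skin replicate 2 and -0.07 without Skin replicate 3.

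**Figure D4:**
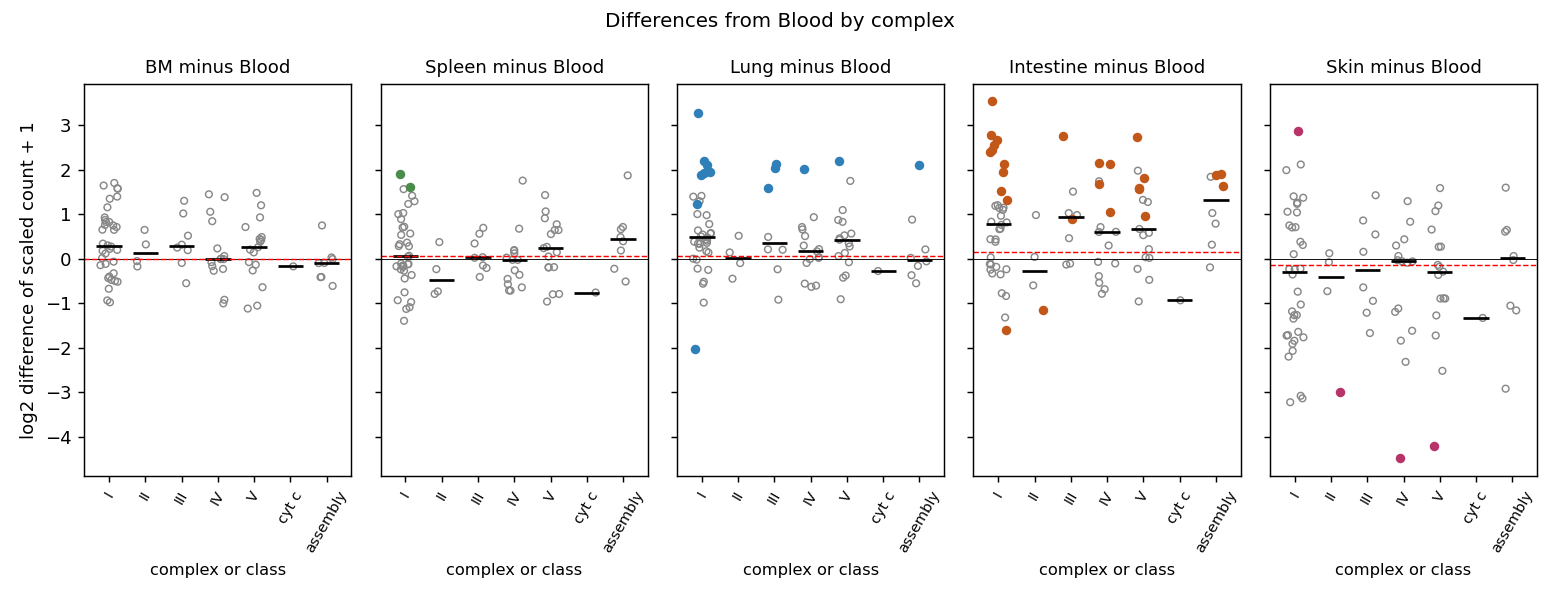
Log2 difference of each of the 89 genes from Blood in 5 tissues, by complex; filled points have an adjusted p under 0.05 (limma), black bars are medians and the red dashed line is the median of all genes tested. The Intestine medians lie above 0.15 in complexes I, III, IV and V and at -0.28 in complex II, and the BM panel has no filled point.

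By complex, the Intestine medians were 0.79 in complex I, -0.28 in complex II, 0.94 in complex III, 0.60 in complex IV and 0.67 in complex V on the log2 scale, and 1.33 for the assembly factors. The 5 genes classed with the head of complex V had a median of 0.96 and 3 rose, while the 11 classed with its other stalk and membrane parts had 0.22 and 2 rose. The head class is wider than the catalytic beta and the alpha subunit, and these classes do not cover all 17 genes of complex V. The 7 core subunits of complex I had a median of 0.97 with 2 higher, and the 29 accessory subunits 0.76 with 8 higher and 1 lower. Among the 47 genes whose exons overlap no other gene and which share under 5% of their 61-base sequences, 10 rose and 2 fell in Intestine. These are 21.3% and 4.26%, against 27.0% and 19.3% of all genes tested, which is also the background of the other counts of this paragraph. These values are descriptions, and no test between complexes was made.

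The 13 subunits encoded on the mitochondrial DNA had larger median differences than the nuclear ones. Their summed scaled counts were 243528, 70620.1 and 68863 in Intestine, 18767, 24645 and 20287 in Lung, and 2132, 2257 and 2042 in Blood. All 13 rose in Intestine (median log2 difference 6.00) and all 13 in Lung (4.08; limma, adjusted p under 0.05). By the same threshold 8 rose in Skin (3.87), 8 in Spleen (2.27) and 1 in BM (1.24). Of all genes tested 27.0% rose in Intestine, 18.3% in Lung, 2.74% in Skin, 7.28% in Spleen and 2.05% in BM. The sum of mitochondrially encoded subunits was 58.3, 17.76 and 19.5 times that of the 89 nuclear genes in Intestine, against 0.879, 0.871 and 0.809 times in Blood. Neither sum was divided by exon length, so these ratios compare tissues and not the levels of the 2 sets of genes. Mitochondrially encoded genes took 23.2, 8.58 and 8.24% of estimated counts in Intestine, against 0.218, 0.228 and 0.209% in Blood. Scaled to the counts outside those genes and Gm10800, the median log2 difference in Intestine was 1.04 over the 89 genes and 0.43 over all genes tested.

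**Figure D5:**
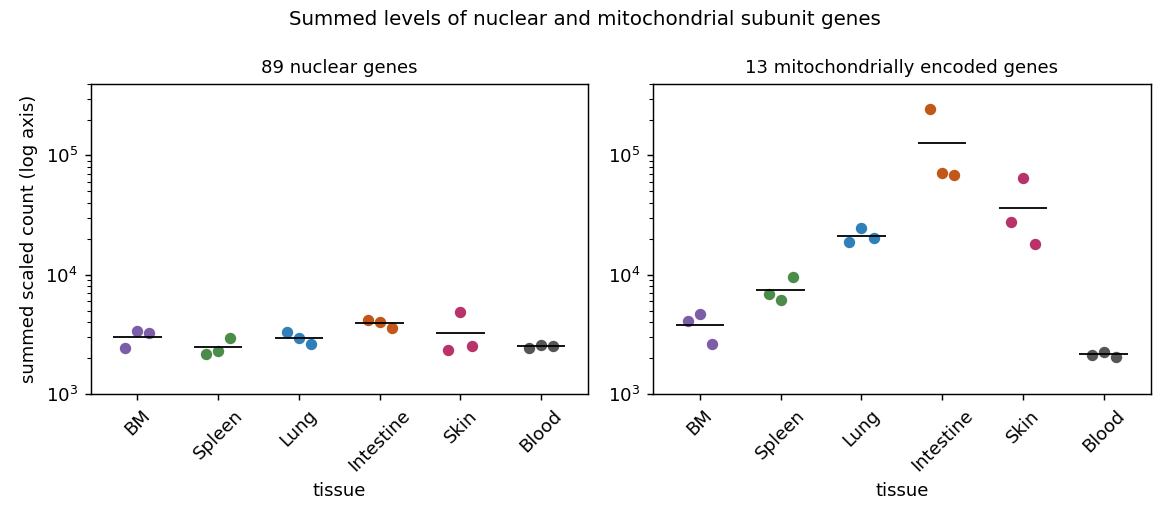
Summed scaled counts (log axis) of the 89 nuclear genes (left) and of 13 mitochondrially encoded subunits (right) in each library, by tissue with Blood at the right; points are libraries and bars means. The nuclear sums lie between 2184 and 4872 in all 18 libraries, while the mitochondrial sums lie between 2042 and 243528. Neither is divided by exon length.

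Cyc1, the cytochrome c1 subunit outside the symbol rule, had 47.2, 20.9 and 25.6 in Intestine, against 2.09, 8.98 and 11.6 in Blood, and rose in Intestine by 1.90 ± 0.63 log2 (adjusted p = 0.0155, limma). Of 17 citrate cycle and pyruvate dehydrogenase genes, 8 rose and 1 fell in Intestine, with Suclg2 and Sucla2, subunits of succinyl-CoA ligase, at 3.57 ± 0.61 and 1.70 ± 0.46 log2 (adjusted p = 3.57e-05 and 0.00408, limma). Dld, the dihydrolipoamide dehydrogenase shared with pyruvate dehydrogenase, was at 1.38 ± 0.44 (adjusted p = 0.0118). Of 15 regulators of mitochondrial biogenesis 3 rose and 5 fell in Intestine, among them Nrf1 and Gabpb1, whose products bind the NRF1 motif and form part of the ETS factor complex, at -2.29 ± 0.39 and -2.11 ± 0.35 log2 (adjusted p = 3.93e-05 and 2.55e-05, limma). Yy1 was at -1.38 ± 0.29 log2 (adjusted p = 0.000338). Of assembly factors outside the symbol rule, 2 of 8 for complex I rose and 3 fell in Intestine, 2 of 13 for complexes II, III and V rose and 2 fell, and 1 of 20 for complex IV rose and 3 fell. The background for all lists of this paragraph is 27.0% of all genes tested higher and 19.3% lower in Intestine.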

How the data were processed

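RNA from sorted neutrophils was amplified and read as 61-nt single ends, per the labels' protocols. The submitters' processing notes list RSEM 1.3.1, CASAVA and limma, with build mm10 (GRCm38); the annotation is not given in the sources used here. The deposited signal values were named TPM by the authors but hold no correction for length: from the values, 0.5 was added to each estimated count and 1 to an effective library, and their quotient was multiplied by a constant. The test planned for TPM was kept. The genes, lists, tests and library weights were chosen with earlier results of these data known. GENCODE vM21 named 31899 of 32328 genes.

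Genes reaching 1 in 3 or more libraries were fitted with limma 3.58.1 (R 4.3.3) on log2(value + 1), as 6 group means over 18 libraries with arrayWeights, a trended prior, 12 residual degrees of freedom and Benjamini-Hochberg adjustment over 16157 genes at 0.05. Dropping the weights gave 10 calls in Intestine, against 26, and 0 in Lung, against 14. Differences on this scale understate low genes. Folds against a group at 0 used a floor of 3 counts per library, for counting error only. The fit was tested on simulated data of 16157 genes, some of them changed in Intestine. With weights 80% of the changed genes were recovered in Intestine. Unchanged genes called were 5 in Intestine, 1 in Skin and 8 in the F test, against 0, 0 and 4 without weights. Genes given in full were fixed isoforms, up to 3 per complex by F test p and up to 6 each way per tissue by p; Ndufb11 was chosen after its values were seen. A gene that enters the counts is not reported here by name. Alternatives were other pseudocounts, filters and scalings, no weights, a replicate block, voom, fewer libraries and leaving out each library.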

Additional observations from a re-analysis of the deposited data

How the results depend on the processing

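None of the tissue differences recomputed for named genes changed direction under the alternatives run. The share of all genes passing was not recorded for the alternatives, so their counts may follow a shift of all genes. Without library weights the number of the 89 genes passing was 17 in the F test (26 with weights), 10 in Intestine (26), 0 in Lung (14), 0 in Spleen (2), 14 in Skin (4) and 0 in BM. With no filter on low values the weights did not converge (1.89e-07 to 18.3), and 4 in BM, 18 in Spleen, 0 in Lung and 1 in Skin passed. With a filter at 5 scaled counts, 5 passed in Spleen, with voom on the estimated counts 0 in Spleen, 8 in Lung and 2 in Skin, and with the 6 libraries compared alone 0 in Spleen, 8 in Lung and 0 in Skin. Scaled outside mitochondrially encoded genes and Gm10800, an alternative chosen after seeing the data, 4 passed in Spleen, and the median log2 differences were 1.04 in Intestine, 0.58 in Lung, 0.27 in Spleen and -0.46 in Skin. Under quantile normalisation they were 0.0991 in BM, -0.0835 in Spleen, -0.0457 in Lung and 0.187 in Intestine, where the median of all genes was -0.18, and with median-of-ratios size factors 1.04 in Intestine and 0.0117 in Skin. The medians of Spleen, Lung and Skin thus changed sign under one of these scalings, and the cause was not tested.

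Leaving out each library in turn gave 13 to 27 passing in the F test, 14 to 28 in Intestine, 0 to 14 in Lung, 0 to 3 in Spleen, 1 to 5 in Skin and 0 in BM. The medians ranged from 0.156 to 0.261 in BM, 0.522 to 0.790 in Intestine, 0.167 to 0.419 in Lung, 0.0224 to 0.0949 in Spleen and -0.477 to -0.0722 in Skin. Same-numbered libraries did not deviate together (median correlation -0.00333, 1 of 45 pairs over 0.1). The sample descriptions also carry letters, and Blood replicate 3 is marked D where that of the other tissues is marked C. A Blood and a Skin library carry the further mark rep, which is not explained. A weak shared effect could be hidden by the scatter of the libraries, so whether the numbers pair the samples was not settled. With the replicate block 21 passed in the F test, 25 in Intestine, 10 in Lung, 3 in Spleen, 0 in BM and 4 in Skin. Depth limits low genes: 49 of the 89 were at 0 counts in at least 1 library, so a difference in those may not be detectable at this depth.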
